A study of Mus musculus with 3 samples.

Results

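The cells described here are the bone and cartilage stromal cells of the mouse nasal mucosa, 100 of the 32376 cells kept over 3 single-cell RNA libraries. They were chosen from their own transcripts. A cell was a unique barcode with at least 500 UMIs (unique molecular identifiers, each counting 1 captured RNA molecule), at least 200 detected genes, at most 20% mitochondrial UMIs and no UMI of Ptprc, the gene of the leukocyte antigen CD45. It was taken as osteoblast lineage when at least 2 of the 5 genes Ibsp, Bglap, Bglap2, Sp7 and Dmp1 had at least 2 UMIs, and as cartilage when the same held for Col2a1, Acan, Matn1, Cnmd and Cytl1. The rule gave 60 osteoblast-lineage cells and 41 cartilage cells, with 1 cell in both. Since expression of these 10 genes made the choice, their levels are given as description and are not support for the names.

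The mucosa came from C57BL/6 mice (C57BL/6J in the sample labels) in 3 groups, males and females in equal numbers by the series' design text. The control group received PBS in the nose. The papain group, the model of eosinophilic chronic sinusitis, received 20 µg papain, a plant cysteine protease, in the nose and PBS by gavage. The third group received the same papain and 10 mg/kg lonidamine (LND), an inhibitor of hexokinase and of the transport of lactate and pyruvate, by gavage. The mucosa of all mice of a group was mixed, broken up with Dispase and with collagenases I and II, and captured with 10x Genomics 3′ chemistry, so each group is 1 pooled library. How many mice entered a pool is not stated in the sources used here. No difference between libraries has a replicate check, no p-value is given, and every interval covers counting error alone. The description of the papain library names it Fibroblast, but its treatment and title are those of the model, and it was used by treatment.

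Osteoblasts build bone. They lay down type I collagen and mineralize it, under the control of the transcription factors RUNX2 and Osterix (Sp7), and they secrete bone sialoprotein (Ibsp), osteocalcin (Bglap, Bglap2) and osteopontin (Spp1). Some become osteocytes, which are embedded in the bone and express Dmp1. Chondrocytes make a matrix of type II collagen (Col2a1) and aggrecan (Acan) under SOX9, SOX5 and SOX6, and they form the septum and the lateral wall cartilages of the nose, next to the thin bones of the turbinates.

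The start regions of Bglap, Spp1 and Mmp13 are shown for 2 reasons. The summed levels of Bglap and Mmp13 differed in opposite directions between 2 groups of osteoblast-lineage cells, as described below. Spp1 differed between the libraries. The 200 bases before each start site are from RefSeq on build GRCm38.p6, which is not the build of the count files, 5′ to 3′ on the gene's strand. Capitals mark the core letters bound by RUNX factors, ACCACA or TGTGGT on the other strand, and the core letters bound by SOX factors, ACAAAG or CTTTGT.
Bglap, chr3:88384467-88384666, minus strand: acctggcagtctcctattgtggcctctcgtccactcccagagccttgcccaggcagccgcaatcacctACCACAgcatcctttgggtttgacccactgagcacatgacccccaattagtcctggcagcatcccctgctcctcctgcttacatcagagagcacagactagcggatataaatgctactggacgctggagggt
Spp1, the first of its 2 listed starts, chr5:104434911-104435110, plus strand: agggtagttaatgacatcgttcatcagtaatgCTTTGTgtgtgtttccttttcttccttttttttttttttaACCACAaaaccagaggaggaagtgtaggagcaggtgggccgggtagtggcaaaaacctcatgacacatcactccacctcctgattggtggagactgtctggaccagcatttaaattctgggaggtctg
Mmp13, chr9:7272314-7272513, plus strand: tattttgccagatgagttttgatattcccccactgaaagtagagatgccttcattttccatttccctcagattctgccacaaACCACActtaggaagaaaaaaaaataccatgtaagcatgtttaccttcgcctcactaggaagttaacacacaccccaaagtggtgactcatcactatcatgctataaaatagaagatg
The RUNX letters began 132 bases before the start of Bglap, 128 before that of Spp1 and 118 before that of Mmp13. They were not found before the second start of Spp1 or before those of Ibsp and Ifitm5, and they were found before those of the cartilage genes Matn1 and Ucma. Over the 250 bases before 32851 RefSeq mouse starts, the RUNX letters occurred in 14% and the SOX letters in 16.5%. These matches are descriptions of sequence and not measured binding. Bglap and its neighbour Bglap2 give nearly the same RNA, 92.6% identical over 471 aligned bases and identical over the last 149 bases in GENCODE transcripts. Reads from the 3′ end could therefore be assigned to either, and their separate values are uncertain.

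The 3 libraries held 82399462, 86197965 and 89164040 deposited UMIs in the order PBS, papain and papain with LND, an order kept below. After filtering, 9515, 10712 and 12149 cells remained, with medians of 7416, 6612 and 5892 UMIs per cell. Of the cells that could be assigned a sex, 56.8%, 73.4% and 83.3% were female, although the design names equal numbers. The library pairs shared 36 barcodes (papain and PBS), 35 (papain with LND and papain) and 22 (papain with LND and PBS), and no barcode was a member in more than 1 library. Soft-tissue fibroblasts, used for comparison, were cells of the same filters in neither arm with at least 2 of Dcn, Lum, Dpt, Pdgfra and Fbln1 at 2 UMIs or more (149, 429 and 538 cells). Mature olfactory neurons, which should lack skeletal genes, gave the level of free RNA (3337, 1672 and 1793 cells).

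Osteoblast-lineage cells were found in every library and were most frequent with LND, and cartilage cells were found only in both papain libraries. The PBS library held 11 osteoblast-lineage cells, 0.116% of its cells with an exact binomial (Clopper-Pearson) 95% interval of 0.0577 to 0.207%. Papain alone had 10 such cells, 0.0934% (0.0448 to 0.172%), and papain with LND had 39, 0.321% (0.228 to 0.439%). The share with LND was 3.44 times that with papain alone (1.69 to 7.73) and 2.78 times that in PBS (1.40 to 6.01). Papain alone against PBS gave 0.808 times (0.308 to 2.09), an interval that spans no change. When each cell was thinned to 2000 UMIs before the rule was applied, the LND share was 2.19 times that with papain (0.863 to 6.24), and 1.60 times that in PBS (0.674 to 4.07), which both span no change. Against PBS the interval also spanned no change with rule genes at 3 UMIs (1.99 times, 0.962 to 4.44) or with 3 of the 5 genes needed (1.88 times, 0.866 to 4.40). Against papain the share with LND was 5.29 times (2.21 to 15.4) without cells carrying markers of another cell type, and 1.95 times (1.17 to 3.35) with 1 UMI in place of 2 for each rule gene. No cartilage cell was seen among the 9515 PBS cells, which allows a share of up to 0.0315%. The papain library held 13, or 0.121% (0.0646 to 0.207%), and that with LND held 28, or 0.231% (0.153 to 0.333%). Against the limit for PBS, these shares were at least 3.85 and at least 7.31 times higher. With the counting error of the 13 and 28 cells included, the lower 95% limits of both folds were 2.71 and 5.56. Between both papain libraries the cartilage share differed by 1.90 times (0.952 to 3.99), again within counting error, and by 0.96 times (0.389 to 2.44) among female cells.

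Soft-tissue fibroblasts also took a larger share after papain, 1.57% of cells in PBS, 4.01% with papain and 4.43% with LND. Relative to the sum of soft-tissue fibroblasts and osteoblast-lineage cells, the latter made up 6.88%, 2.28% and 6.76%, so the LND library stood near PBS on this scale and papain alone lower. Cartilage cells made up 0%, 2.94% and 4.95% on the same scale. How much bone or cartilage was cut away with the mucosa, and how much of it was digested, was not measured and cannot be told apart from the treatments with 1 library each. The sex of the cells differed along with the shares. Female cells were 8, 6 and 36 of the osteoblast-lineage cells, against 1, 2 and 2 male cells. Of the cartilage cells, 10 were female and 3 male with papain alone, and 13 were female and 4 male with LND. No sex could be assigned to 11 of the 28 LND cartilage cells, against 0 of 13 with papain alone, and 3 of the 28 held UMIs of both Xist and Y-linked genes. The comparison in female cells above rests on the assigned cells alone. Among female cells alone, the limit for cartilage in PBS was higher because fewer cells were counted, and the bounds became at least 2.23 times for papain and at least 2.14 times for LND. Both leave out the counting error of the 10 and 13 female cartilage cells, with which the lower limits would be smaller.

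**Figure D1:**
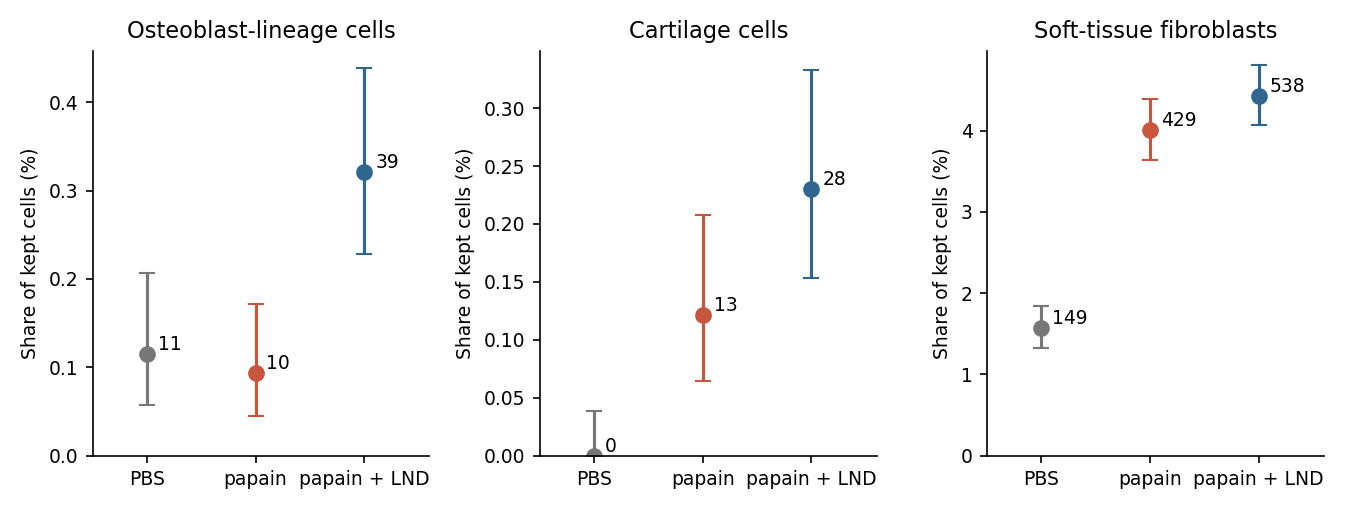
Share of kept cells (percent, y axis) that were osteoblast-lineage cells, cartilage cells or soft-tissue fibroblasts in each of the 3 libraries, with exact binomial 95% intervals for counting error. The LND library holds 39 osteoblast-lineage and 28 cartilage cells, and the PBS library holds 11 and 0.

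More cells lay close to the threshold of the rule in both papain libraries. Cells just outside it, with 1 osteoblast gene at 2 UMIs and another at 1, numbered 2, 9 and 9, and those just inside, with exactly 2 genes at 2 UMIs, numbered 1, 3 and 15. Of the 9 papain cells just outside, 7 had UMIs of Runx2 and 7 of Col1a1, and of the 9 LND cells 7 and 8, while neither of the 2 in PBS had any. For cartilage the numbers just outside were 0, 9 and 4 and those just inside 0, 3 and 7. With 1 UMI in place of 2 for each gene, the osteoblast lineage numbered 13, 23 and 51 cells and cartilage 0, 28 and 34, and its threshold was set after the data were seen. Ptprc removed 2 osteoblast-lineage cells (LND) and 3 cartilage cells (1 papain, 2 LND), each with 1 or 2 Ptprc UMIs. The removed papain cell carried 475 Cytl1 UMIs, more than any papain cell inside.

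Ibsp, which codes for bone sialoprotein, was the most regular of the rule genes in the osteoblast lineage. Its UMIs per cell ran from 0 to 242 with a median of 42 in PBS, from 0 to 153 with a median of 16.5 with papain, and from 0 to 229 with a median of 15 with LND. As CPM (the UMIs of a gene scaled to a fixed total, from sums over the cells of a library), this was 5093, 2906 and 5227. The ranges of the 3 libraries overlapped. Bglap was far more uneven: its median was 19, 9 and 3 UMIs, its maximum 183, 932 and 845, and a single cell held 87.4% of the Bglap UMIs of the papain library. Sp7, the gene of Osterix, was found in 3 of 11, 7 of 10 and 28 of 39 cells and never above 7 UMIs. Dmp1 was rare, in 3, 2 and 6 cells, with 77 of the 119 UMIs of the LND library in 1 cell. Members held 98.5%, 47% and 73.2% of all Ibsp UMIs of their library, and a papain cell outside the rule carried 183. For Bglap these shares were 97.2%, 98% and 95.5%. Most UMIs of Sp7, and of Dmp1 in PBS and papain, lay outside the members, which held 32%, 28.6% and 49.3% of the Sp7 UMIs and 10.5%, 2.2% and 56.9% of those of Dmp1. In the neurons, 0.18%, 0.12% and 0.335% of cells had an Ibsp UMI and 0.21%, 0.239% and 1.23% a Bglap UMI. Their median depths were 8060, 7586.5 and 6997 UMIs, against 10287, 8005 and 6414 in the osteoblast-lineage cells.

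Several osteoblast genes that the rule did not use were found in most of these cells, while Ifitm5 (3, 2 and 12 cells) and Phex (2, 3 and 10) were not. Runx2 UMIs were found in 11 of 11, 9 of 10 and 35 of 39 cells, against 0.989%, 0.837% and 1.73% of neurons. After each cell was thinned to 2000 UMIs, which left out 3 LND cells, Runx2 remained in 6 of 11, 4 of 10 and 25 of 36. Alpl, the alkaline phosphatase that frees phosphate for mineral, was found in 7, 8 and 31 cells. Col1a1, which codes for a chain of type I collagen, was found in 11, 9 and 39 cells, and in 2.04%, 2.51% and 7.08% of neurons. Tooth genes of the enamel and dentine (Dspp, Amelx, Ambn, Enam, Klk4, Odam and Amtn) had 0 UMIs in every member. Of the 8 osteoclast genes, Ocstamp, Dcstamp, Calcr and Oscar were also at 0 in both arms and all libraries. The osteoclast phosphatase gene Acp5 had 0, 12 and 2 UMIs in the osteoblast lineage, 11 of the 12 in 1 cell, and Mmp9 had 1, 1 and 0. Atp6v0d2 had 5 UMIs in 1 LND cartilage cell and 0 in the osteoblast lineage. Ctsk, the gene of the protease cathepsin K, was found in 11, 9 and 31 osteoblast-lineage cells, with 37, 31 and 72 UMIs, and in 51.0%, 55.2% and 53.0% of soft-tissue fibroblasts.

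Against soft-tissue fibroblasts of the same library, 143 of 4119 genes (3.47%) were at least 2-fold higher in the osteoblast lineage, with an interval excluding no change, in all 3 libraries, and 61 (1.48%) were lower. The members were defined on these cells, so these counts describe them and test nothing. Of the 17 bone matrix genes measured, 13 were among those higher, including Col1a1, Spp1, Sparc, Ifitm5, Postn and Omd. The mineralization list gave 5 of 8 (Alpl, Phex, Smpd3, Slc8a3 and Cthrc1). The osteoblast regulators gave 5 of 9, among them Runx2, Creb3l1 and Pth1r, the receptor of parathyroid hormone. Sp7 is also counted among these 5, although it is a rule gene that chose the cells. Matrix turnover gave 7 of 21, with the collagenase Mmp13 and the inhibitors Timp1 and Timp3. No gene of 9 in the Wnt pathway and 2 of 14 in the BMP pathway (Bmp3 and Nog, an extracellular BMP antagonist) met the rule.

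Of the genes outside the rule, Col22a1, a collagen of tissue junctions, stood farthest from the soft-tissue fibroblasts. It had 24, 16 and 83 UMIs in the osteoblast lineage and 0, 0 and 2 in the far more numerous fibroblasts. Col11a2, a chain of the fibrillar type XI collagen, had 58, 61 and 285 against 1, 5 and 7. Smpd3, a sphingomyelinase needed for normal mineralization, had 28, 35 and 137 against 1, 15 and 8. Ifitm5, a membrane protein of osteoblasts also called BRIL, had 43, 24 and 71 against 4, 10 and 14. Each was found in only part of the 11, 10 and 39 cells. Col22a1 was in 3, 2 and 13, Col11a2 in 3, 4 and 17, Smpd3 in 2, 2 and 12, and Ifitm5 in 3, 2 and 12. A single papain cell, which also held markers of other cell types, had 34 of the 35 Smpd3 and 23 of the 24 Ifitm5 UMIs.

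**Figure D2:**
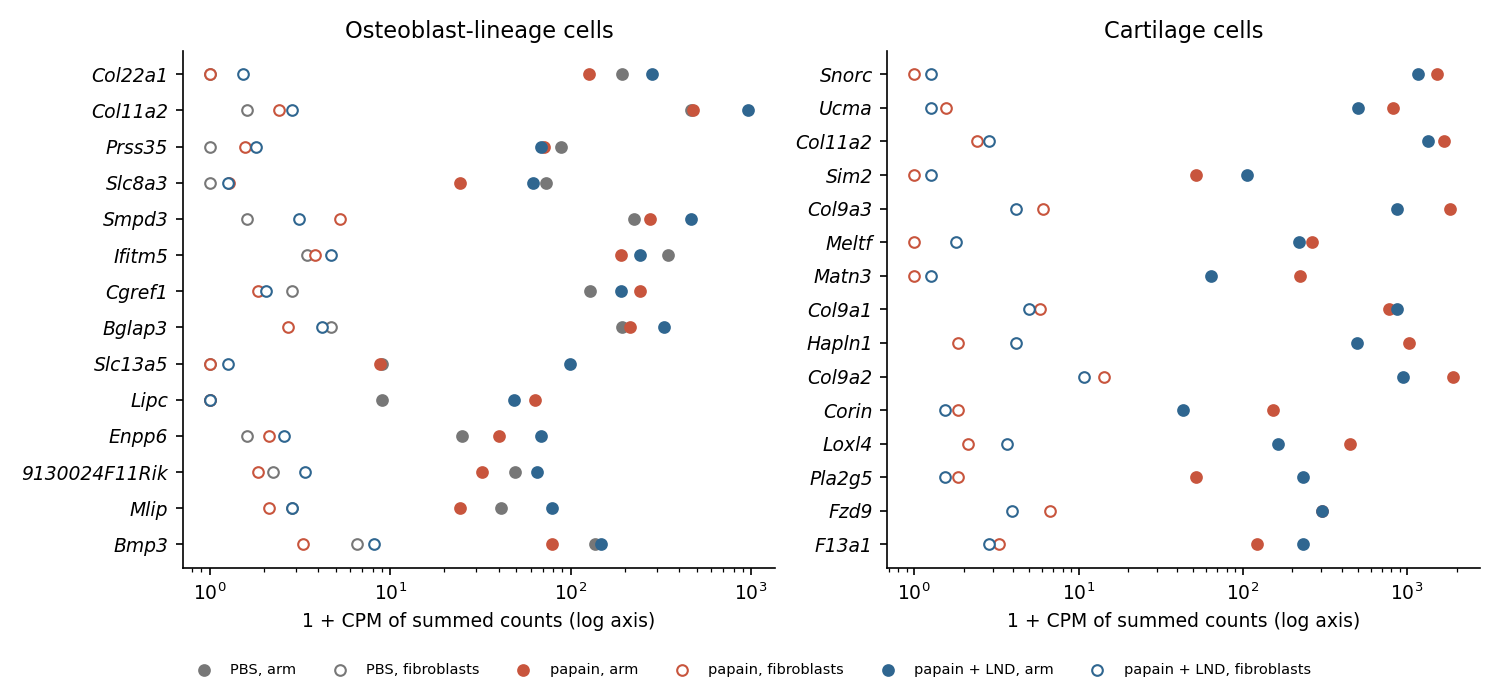
CPM plus 1 (log axis) of leading genes of each arm, in the members and in soft-tissue fibroblasts of each library. Snorc, for example, had 150 and 166 UMIs in cartilage cells and 0 and 1 in the fibroblasts of the papain and LND libraries.

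The osteoblast lineage was not uniform. In 15 of the 60 cells, 2 in PBS, 1 with papain and 12 with LND, the type I collagen genes Col1a1 and Col1a2 made up 13.69 to 34.69% of all UMIs of the cell. In the other 45 they made up 0.23 to 8.84%, and no cell fell between 8.84 and 13.69%. The boundary of 10% used here was set after these values were seen. The collagen-rich cells had a median of 11416 UMIs and the others 7088. Ibsp did not follow this division, with 4054 CPM in the collagen-rich cells and 4930 CPM in the others.

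Osteocalcin and several genes of the mineralizing matrix followed the collagen. Bglap was at 26150 CPM in the collagen-rich cells and 1159 CPM in the others, and Bglap2 at 9775 and 1101 CPM. These are summed levels, and single cells overlapped. Bglap was found in 15 of 15 and 34 of 45 cells, with 2 to 932 UMIs in the collagen-rich cells and up to 81 in the others. Smpd3 was found in 14 of 15 collagen-rich cells and in 2 of 45 others. Ifitm5 was found in 13 of 15 and 4 of 45, and Car3, a carbonic anhydrase, in 14 of 15 and 3 of 45. Phex, an endopeptidase-like protein of phosphate balance, was found in 9 of 15 and 6 of 45.

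Another group of genes ran the opposite way. Mmp13 was found in 40 of the 45 collagen-poor cells, with 2591 UMIs in all, and in 1 of the 15 collagen-rich cells, with 1 UMI. Postn, which codes for the matrix protein periostin, was found in 42 of 45 and 1 of 15, and Aspn, a small leucine-rich proteoglycan, in 23 of 45 and 0 of 15. Alpl was found in 39 of 45 and 7 of 15, at 763.8 and 192.5 CPM. Runx2 was found in 43 of 45 and 12 of 15. Spp1 lay on neither side. It was found in 14 of 15 collagen-rich and 21 of 45 collagen-poor cells, but its summed level was 3185 CPM in the former and 18950 CPM in the latter, with 2065 of its 4959 PBS UMIs in 1 cell. In the papain library it was higher in the single collagen-rich cell, at 14750 against 5136 CPM. Of the 15 collagen-rich cells 3 held markers of another cell type, and of the others 7. Without them Smpd3 was found in 11 of 12 and 2 of 38 cells and Mmp13 in 1 of 12 and 33 of 38. The start regions of Bglap and Mmp13 printed above, both with the RUNX letters, thus belong to genes from opposite sides of this division.

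**Figure D3:**
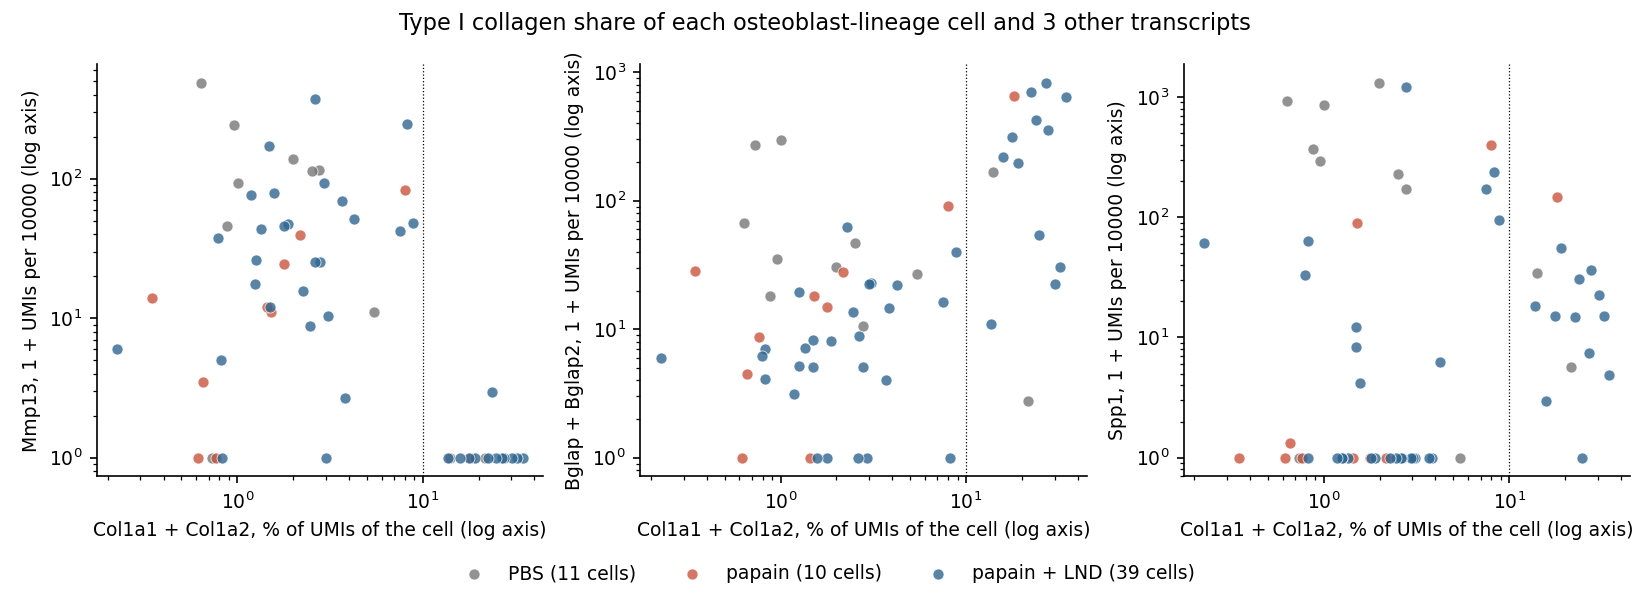
Each point is 1 osteoblast-lineage cell, with the percent of its UMIs from Col1a1 and Col1a2 on the x axis. The y axes show its UMIs of Mmp13, of Bglap and Bglap2 together, and of Spp1, scaled to the total UMIs of the cell. All axes are logarithmic. To the right of the dotted line at 10%, 1 of 15 cells has an Mmp13 UMI, against 40 of 45 to the left.

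Mmp13 and Smpd3 followed the division in each library, as far as the numbers allow. All 8 PBS cells, all 7 papain cells and 25 of 26 LND cells with an Mmp13 UMI were collagen-poor. Smpd3 was found in 2 of 2, 1 of 1 and 11 of 12 collagen-rich cells. Other genes did not follow it everywhere: Bglap2 in PBS stood at 3122 CPM in the 2 collagen-rich cells and 3253 CPM in the others. Within the collagen-poor cells alone, Col1a1 stood at 9156, 7426 and 11750 CPM, Mmp13 at 12930, 1459 and 7069 CPM, and Spp1 at 53780, 5136 and 9549 CPM. With all collagen-poor cells counted, the papain library was thus the lowest of the 3 for each of these genes. Over all osteoblast-lineage cells, Spp1 stood at 39590, 6596 and 6401 CPM, with the LND library slightly below papain. A single LND cell, with markers of another type, held 1206 of the 1698 LND UMIs of Spp1 in the collagen-poor cells. Without cells holding such markers, Spp1 over all osteoblast-lineage cells was lower with LND than with papain, by its ratios to PBS given below. Genes of the osteocyte list were unequally present. Dmp1 reached 2 UMIs in 2, 1 and 5 cells, and over all osteoblast-lineage cells Sost had 1 UMI, Mepe 4 and Fgf23 0. Irx5, a homeobox factor, was found in 7 of 11, 6 of 10 and 18 of 39 cells and Gja1, the gap junction protein connexin 43, in 10, 7 and 22. Of the 4 genes of this list that could be compared with fibroblasts, Phex and Irx5 were higher in all 3 libraries.

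**Figure D4:**
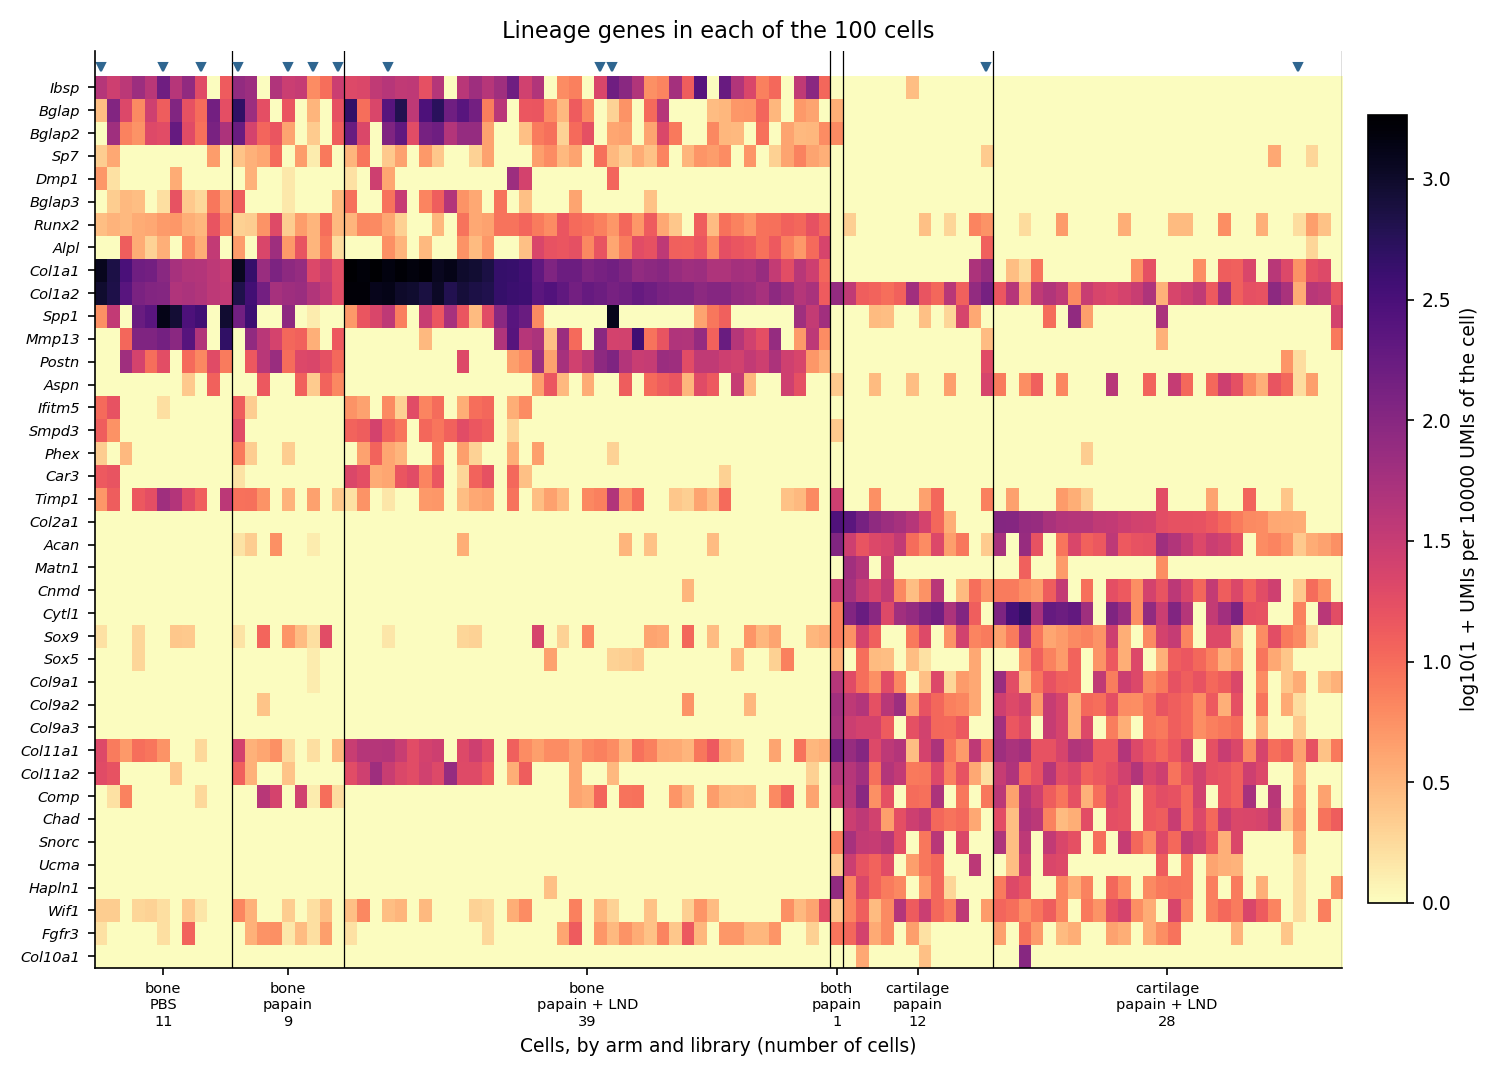
Heat map of all 100 cells (columns, by library and arm), with the rule genes and named genes outside the rule in rows. Colours show UMIs scaled to the total UMIs of each cell, on a log scale. Triangles stand over cells with markers of another cell type. The osteoblast-lineage cells are ordered by their share of Col1a1 and Col1a2, and the cartilage cells by Col2a1.

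Some members also carried RNA of other cell types. At least 2 markers of 1 other type at 2 UMIs or more were found in 3 of 11, 4 of 10 and 3 of 39 osteoblast-lineage cells. These cells were large, with medians of 16985, 22577 and 9900 UMIs. In the papain library, the other type was epithelial in 3 cells, immune in 2, neuronal in 1 and osteoclast in 1. The 6 epithelial markers summed to 144, 1692 and 67.7 CPM in the osteoblast lineage, with Cdh1 at 0 in PBS and LND, and the 10 immune markers to 95.8, 2186 and 125 CPM, with C1qb, Cd3e and Cd79a at 0 in all 3. Scrublet, a caller of doublets, marked 1 member. UMIs of Xist and of Y-linked genes stood together in 1, 2 and 0 osteoblast-lineage cells. The comparisons below are therefore given with and without these 10 cells, whose removal leaves 8, 6 and 36, a choice made after the data were seen. The 8 and 6 lie below the 10 cells otherwise required. The 6 papain cells still include the 1 cell that met both parts of the rule. A gene is called higher or lower when it differed at least 2-fold and the counting interval of its log2 ratio excluded 0. The comparisons share libraries, so their results are not independent of each other.

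Papain against PBS. In the osteoblast lineage, Spp1, Mmp13, Sfrp4, Timp1 (66 against 260 UMIs) and Tnfsf11 were lower with papain than in PBS. Spp1 ranged from 0 to 2065 UMIs per cell in PBS, with a median of 221, and from 0 to 329 with papain, with a median of 0. The log2 ratio of its CPM was -2.58 (-2.69 to -2.48), and -1.68 without cells holding other markers. Mmp13 ranged from 0 to 348 with a median of 106 in PBS, and from 0 to 68 with a median of 7 with papain. Its log2 ratio was -2.92 (-3.17 to -2.68), and -2.08 without those cells. The ranges of both genes overlapped between libraries. In soft-tissue fibroblasts the log2 ratio of Spp1 was -0.01, and Mmp13 had 0 UMIs in PBS and 228 with papain, in 19 of 429 cells.

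Sfrp4, a secreted Wnt antagonist, had 51 UMIs with papain and 252 in PBS, a log2 ratio of -2.32. Tnfsf11, the gene of RANKL, which drives the formation of osteoclasts, had 5 against 31 UMIs (log2 ratio -2.54, -4.38 to -1.28). Gja1 had 13 against 67 (-2.35). Ccn5, a matricellular protein, had 1 UMI against 72. All 4 were also called lower without the cells holding other markers. So were Fdps (3 against 39 UMIs), Cyp51 (3 against 31) and Hmgcs1 (5 against 39), each of which codes for an enzyme on the way to cholesterol. These 3 had negative log2 ratios in soft-tissue fibroblasts, from -2.43 to -1.37, as well.

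Of all 2125 genes tested between PBS and papain, 223 (10.5%) were higher and 212 (9.98%) lower. Of 16 matrix turnover genes, 7 were lower and 0 higher with papain (Mmp13, Mmp14, Timp1, Htra1, Lox, Pcolce and Adamts2), with a median log2 ratio of -0.96 against -0.15 over all genes. Without cells holding other markers, 3 of 14 were lower and 1 higher, where 18.7% of 829 genes were lower and 13.4% higher. The bone matrix list gave 1 higher and 3 lower of 16, and the osteoblast regulators 0 higher and 1 lower of 6. Runx2 (30 against 38 UMIs, log2 ratio -0.36, -1.11 to 0.36) did not meet the rule. Nuclear genes of oxidative phosphorylation and the targets of lonidamine gave none of 16 and none of 6 in either direction.

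Most of the genes with the highest ratios to PBS were carried by the cells with other markers. Chil4, a chitinase-like protein of epithelium and macrophages, had 819 UMIs with papain and 1 in PBS, 810 of them in 1 cell. Reg3g, an antimicrobial lectin, had 1342 against 5, with 1319 in 1 cell, and Ltf, the gene of lactoferrin, 571 against 2, with 546 in 1 cell. Wfdc18, a secreted whey acidic protein family member, had 574 UMIs with papain, of which 5 were left without these cells, and 0 in PBS. The UMIs of Col2a1 (213) lay in the 1 cell that met both parts of the rule. It had 7733 UMIs, with 84 of Acan, 24 of Cnmd and 5 of Cytl1, but only 2 of Bglap, 4 of Bglap2 and 0 of Col1a1, and so was a cartilage cell by its levels. Comp, a cartilage and tendon matrix protein, and Sox9 were higher beyond that cell: Comp had 73 against 6 UMIs, 20 of them in it, and Sox9 37 against 4, found in 7 of 10 and 4 of 11 cells.

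LND with papain against papain. The type I collagen genes were higher with LND. Col1a1 ranged from 4 to 3319 UMIs per cell with LND, with a median of 63, and from 0 to 2226 with papain, with a median of 44.5. Its level was 60950 against 23740 CPM, a log2 ratio of 1.36 (1.30 to 1.42), and 2.04 without cells holding other markers. Without the single cell with most Col1a1 in each library the log2 ratio was 2.86. Col1a2 differed by 1.68 (1.62 to 1.75). In soft-tissue fibroblasts the log2 ratios were 0.02 for Col1a1 and 0.22 for Col1a2. The collagen-rich cells were 12 of 39 with LND and 1 of 10 with papain, and 11 of 36 and 0 of 6 without cells holding other markers. Within the collagen-poor cells Col1a1 stood at 11750 against 7426 CPM.

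Genes from both sides of the collagen division were also higher with LND. Car3, found mostly in collagen-rich cells, had 141 UMIs in 14 of 39 cells against 1 UMI with papain. Dmp1, a rule gene, had 119 against 3 UMIs (log2 ratio 3.88), 101 of the 119 in collagen-poor cells. A single LND cell, a member by Ibsp and Dmp1 alone, held 77 of them. Aebp1, which codes for a collagen-binding protein, had 190 against 20 UMIs. Runx2, at a higher level in the collagen-poor cells, had 178 against 30 UMIs, a log2 ratio of 1.34 (0.79 to 1.97), but 0.57 and not called without cells holding other markers. The same held for Mmp13, a gene of the collagen-poor cells, at 1258 against 158 UMIs, with a log2 ratio of 1.78, which became 0.66.

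Between these libraries, 178 of 3214 genes (5.54%) were higher with LND and 303 (9.43%) lower. With the scale set by TMM, which is less moved by a few very abundant genes, the same comparison gave 320 higher and 199 lower. The 10 most abundant genes held 26.7% of the UMIs with LND, 15.1% with papain and 17.5% in PBS, and TMM shifted all log2 ratios by 0.26 here and by 0.31 for LND against PBS. On the CPM scale, 11 of 19 matrix turnover genes were higher and 0 lower, with a median of 1.05 against -0.07 over all genes. They were the lysyl oxidases (Lox, Loxl1 and Loxl2), the proteases (Mmp13, Mmp23, Adamts1, Adamts2, Adamts5, Adamts9 and Htra1) and Pcolce. Without cells holding other markers 1 was higher and 1 lower, where 2.67% of 2247 genes were higher and 7.52% lower. Osteoblast regulators gave 5 of 9 higher, among them Runx2, Creb3l1, Msx1 and Twist1, and 1 without those cells. Bone matrix gave 4 higher and 1 lower of 17, and 6 and 2 without those cells. Of the 178 genes higher with LND, 29 remained so without them, and of the 303 lower, 63.

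Genes lower with LND were led by Lcn2, Chil4, Reg3g, Ltf, Wfdc18 and Cyp2a5, the same epithelial and immune transcripts that single papain cells carried. Lcn2 had 2 UMIs against 362 and Ltf 18 against 571, and without cells holding other markers Lcn2 had 1 against 1 and Ltf 14 against 4.

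LND with papain against PBS. Spp1, Timp1, Mmp13 and Tnfsf11 were lower with LND than in PBS, and Alpl, Phex and the rule gene Sp7 higher. Bglap, also a rule gene, was higher in its sum and lower in its median per cell. Spp1 had a median of 3 UMIs per cell with LND, 1206 of its 1892 UMIs lying in 1 cell, against the PBS median of 221. The log2 ratio was -2.63 (-2.71 to -2.55), and -3.64 without cells holding other markers. Timp1, an inhibitor of matrix proteases, had 120 against 260 UMIs (-2.35), and its log2 ratio in soft-tissue fibroblasts had the opposite sign, 2.43. Mmp13 had a log2 ratio of -1.14 (-1.26 to -1.03), and Tnfsf11, with 14 against 31 UMIs, of -2.36.

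Alpl had 223 UMIs in 31 of 39 cells against 33 in 7 of 11, 754.4 against 263.5 CPM with a log2 interval of 0.99 to 2.09. Sp7 had 71 against 8 UMIs (1.83) and Phex 37 against 3 (2.18). With LND, 4 cells were members by Ibsp and Sp7 alone and 2 by Bglap2 and Sp7 alone, while no PBS cell was. Since Sp7 took part in the choice of cells, its ratio is description alone. In soft-tissue fibroblasts Alpl and Sp7 were higher with LND too, at 64.47 against 12.35 CPM and 9.02 against 1.235 CPM. Phex stood there at 1.327 against 1.852 CPM. Of the 37 Phex UMIs, 31 lay in the 12 collagen-rich cells. Bglap had a log2 ratio of 1.82, with 3365 of its 3441 LND UMIs in those 12 cells. Its median per cell was 3 UMIs with LND and 19 in PBS, it was found in 31 of 39 and 11 of 11 cells, and in the collagen-poor cells it stood at 427.4 against 2495 CPM. Aspn had 111 UMIs against 4, a log2 ratio of 3.39 (2.16 to 5.46). Cpxm1, a carboxypeptidase-like protein, was at least 7.63-fold higher, with 54 UMIs against 0 in PBS, and Ptgs2, the inducible cyclooxygenase, at least 6.22-fold, with 44 against 0. These bounds take a floor of 3 UMIs for the whole group. Dbp, a factor of the circadian clock, was at least 5.93-fold higher (42 UMIs in 25 cells against 0) and had a positive log2 ratio in soft-tissue fibroblasts too, 2.40. All genes of this paragraph up to here were called without cells holding other markers. Rn18s-rs5, which takes up ribosomal RNA, had the highest bound, with 68290 against 7425 CPM, and its log2 ratio of 3.20 stood beside 2.24 in soft-tissue fibroblasts.

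Of 3187 genes tested, 258 (8.1%) were higher and 445 (14%) lower with LND than in PBS, and TMM turned this split to 467 and 228. Of the 258, 137 remained without cells holding other markers, and of the 445, 266, beside 6.82% higher and 12.2% lower of 2494 genes in that comparison. Nuclear genes of oxidative phosphorylation gave 0 higher and 10 lower of 18, with a median of -1.04 against -0.20 over all genes. There were 8 lower without cells holding other markers and 4 lower with TMM. Cox5a, a subunit of cytochrome c oxidase, was at 179.3 against 463 CPM (log2 ratio -1.37, -1.93 to -0.81). Glycolysis genes gave 0 higher and 6 lower of 10 (Ldhb, Gapdh, Aldoa, Gpi1, Pkm and Pgam1). Single PBS cells held 46 of the 84 Gapdh UMIs and 21 of the 25 Ldhb UMIs, and without cells holding other markers 1 of 6 was lower. The BMP pathway gave 6 higher and 0 lower of 13 (Id1, Id2, Smad6, Smad7, Gdf10 and Chrdl1), and 4 and 1 without those cells. Of 10 inflammatory genes, 5 were higher (Ptgs2, Il6, Cxcl12, Icam1 and Osmr), with 16 of the 20 Il6 UMIs in 1 cell. Genes known to respond to tissue dissociation gave 6 higher of 14, among them Egr1 (4120 against 1333 CPM) and Hspa1a (1157 against 518.9 CPM), and their part in the other differences was not tested.

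**Figure D5:**
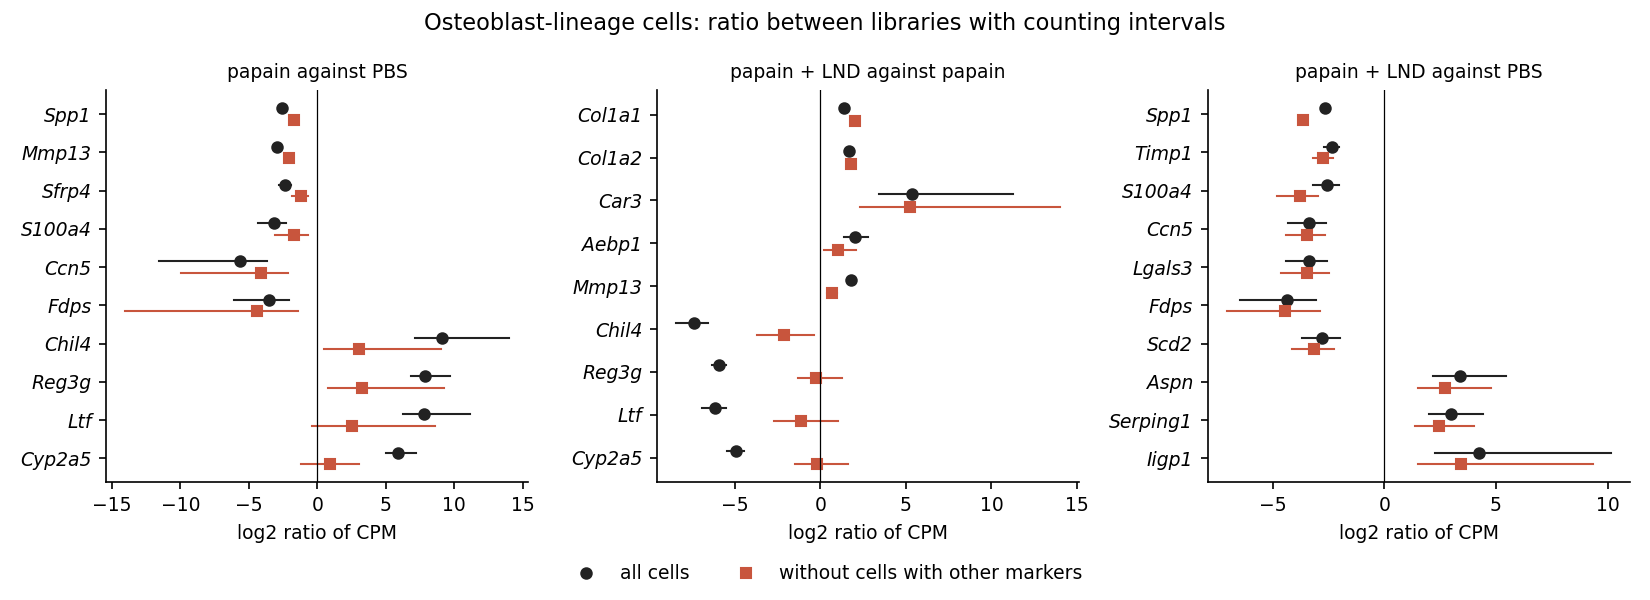
Log2 ratios of some of the named genes in each comparison with counting 95% intervals, for all cells and without cells holding markers of another type; intervals were clipped at -14 and 14. Spp1 lies below 0 in both comparisons with PBS, with and without those cells.

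Of the direct targets of lonidamine, Bsg, Hk2 and Mpc1 were each called in 1 comparison. Of 6 measured in the osteoblast lineage, none was called with papain against PBS. With LND against papain, Bsg, the chaperone of the lactate transporters, was lower at 314.6 against 673.7 CPM (log2 ratio -1.10), and it was not called under TMM or without cells holding other markers. With LND against PBS, Hk2, a hexokinase, was higher (186.1 against 79.84 CPM, log2 ratio 1.16) and Mpc1, a subunit of the mitochondrial pyruvate carrier, lower (148.8 against 367.2 CPM, -1.30), and neither was called without those cells. So few genes cannot be read against the 8.1% higher and 14% lower over all genes. None of 5 was called in cartilage, where Hk2 had 45 UMIs with LND and 21 with papain (log2 ratio 0.55, -0.21 to 1.39).

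In cartilage, the cells carried Col2a1, Acan, Cnmd and Cytl1 together in most cases. Col2a1 ranged from 0 to 213 UMIs with a median of 23 with papain, and from 0 to 110 with a median of 7.5 with LND. Cytl1, a secreted cytokine-like protein of chondrocytes, ranged from 0 to 210 with a median of 43, and from 0 to 690 with a median of 23. Acan had medians of 5 and 4 UMIs and Cnmd, the gene of the anti-angiogenic chondromodulin, 7 and 5. Matn1, a matrilin that links matrix fibrils, was in 3 of 13 and 3 of 28 cells. The ranges of each gene overlapped between both libraries. In neurons, 1.14% and 0.669% of cells had a Col2a1 UMI and 3.11% and 2.01% a Cnmd UMI. Median depth was 5707 and 4035 UMIs in the cartilage cells. Members held 73.5% and 86.2% of all Col2a1 UMIs of their library but 41.4% and 44.9% of those of Cnmd.

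Several cartilage genes outside the rule were also found in most cells. Others were not, such as Matn3, in 5 of 13 and 1 of 28, and Ucma, in 9 of 13 and 10 of 28. Sox9, the main regulator of chondrocytes, was found in 10 of 13 and 23 of 28 cells, and in 5.2% and 5.35% of neurons. Thinned to 2000 UMIs, which left out 2 and 1 cells, it remained in 10 of 11 and 20 of 27. The collagens that accompany Col2a1 were common: Col9a1 had 76 and 123 UMIs, Col9a2 187 and 135, Col9a3 180 and 124, Col11a1 354 and 332 and Col11a2 166 and 190. Chad, a cell-binding matrix protein, had 161 and 214, and Comp 143 and 182.

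Against soft-tissue fibroblasts, 251 of 2152 genes (11.7%) were higher in cartilage cells in both libraries and 53 (2.46%) lower. As in the osteoblast lineage, these counts describe the cells that the rule chose. Proteoglycans, adaptors and their enzymes gave 15 of 17 higher, cartilage collagens 7 of 10 and cartilage regulators 3 of 5 (Sox9, Sox5 and Sox6). The Wnt pathway gave 6 of 9, of which Dkk3, Frzb, Wif1 and Notum code for secreted antagonists, Fzd9 for a receptor and Lef1 for a transcription factor. Snorc, a chondrocyte membrane proteoglycan, led with 150 and 166 UMIs against 0 and 1 in fibroblasts, followed by Ucma, a secreted protein of young chondrocytes, with 81 and 71 against 2 and 1. Of the FGF and IGF genes, 3 of 10 were higher (Fgf18, Fgfr3 and Fgfrl1).

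The cartilage cells also differed among themselves. The 6 cells with at least 2 Matn1 UMIs, 3 in each library, all had Ucma and Fgfr3. They stood at 2281 CPM for Ucma, 3673 for Snorc, 3529 for Comp and 22780 for Cytl1. A single LND cell held 690 of their Cytl1 UMIs, and none of the other cells of this class held more than 94. Matn1, Col2a1 and Cytl1 are genes of the rule. The 26 cells with Col2a1 but not Matn1 at this level stood at 293 CPM for Ucma (11 of 26 cells), 1009 for Snorc and 7609 for Cytl1. In the 9 cells with neither, Col2a1 had 3 UMIs in all and Snorc stood at 285 CPM. These 9 carried the fibroblast genes Lum (2661 CPM) and Dcn (2262 CPM) and also Clu (1843 CPM). These classes were set after the values were seen. Col10a1, the collagen of hypertrophic cartilage, had 141 UMIs in the LND library, all of them in 1 cell, which also held 690 Cytl1, 110 Col2a1 and 70 Sox9 UMIs. The papain cells had 4 Col10a1 UMIs in all.

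LND with papain against papain, cartilage. Fewer UMIs of Col2a1, Matn1 and part of the proteoglycan list were found with LND, while Acan and Sox9 were not called. Since Col2a1, Matn1, Acan, Cnmd and Cytl1 chose these cells, their ratios are description alone. Col2a1 had 399 UMIs in 28 cells against 664 in 13, a log2 ratio of -1.26 (-1.45 to -1.08). Of the 664, 213 lay in the cell that met both parts of the rule and 199 in another cell. A single LND cell held 110 of the 399. Matn1 had 20 against 85 (-2.59), resting on 3 cells in each library. Acan (0.14, -0.13 to 0.42), Cnmd (-0.47) and Cytl1 (0.67) were not called. Sox9 stood at 1160 and 993.5 CPM, a ratio of 0.22 (-0.15 to 0.60), and Sox5 was higher, with 53 UMIs in 19 of 28 cells against 11 in 7 of 13 (1.69, 0.79 to 2.83).

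Of 2152 genes tested in cartilage, 133 (6.18%) were higher and 85 (3.95%) lower, and TMM gave 114 and 107. Of the 133, 96 remained without the 2 cells holding markers of another type, and of the 85, 61, beside 7.92% higher and 4.86% lower of 1831 genes in that comparison. Of 17 proteoglycan and adaptor genes, 1 was higher (Epyc) and 5 lower: Prg4 (lubricin), Hapln1 (the link protein of aggrecan), Matn3, Fibin and Xylt1, the enzyme that starts the glycosaminoglycan chains. Xylt1 had 8 against 28 UMIs (-2.27), in 4 of 28 and 7 of 13 cells. Hapln1 had 70 against 101 UMIs (-1.06), with 64 of the 101 in 1 cell, and was -0.09 without the cells with most of it. Ugdh, which makes the sugar donor of these chains, had 19 against 53 (-1.99, -2.85 to -1.23), in 12 of 28 and 10 of 13 cells. Frzb was the single Wnt gene of 9 that was called, with 6 against 29 UMIs, 19 of them in 1 cell. Cartilage collagens gave 1 higher (Col10a1, from the single cell above) and 2 lower (Col6a3 and Col9a3) of 10.

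Genes higher in cartilage with LND included Cldn11, a tight junction protein, at least 6.93-fold (30 UMIs in 5 cells against 0). Tsc22d3, a gene induced by glucocorticoids, had 112 UMIs in 24 of 28 cells against 19 in 8 of 13, 787 against 193 CPM with a log2 interval of 1.32 to 2.82. Hspa1a, a heat shock protein, had 81 against 10 (2.43), and 3 of 14 dissociation genes were higher and 0 lower (Hspa1a, Hspa1b and Fosb). In soft-tissue fibroblasts Hspa1a had a log2 ratio of -0.01 and Tsc22d3 of 0.64. Bmp2, a BMP ligand, had 41 against 12 UMIs (1.20) and Tgfb2 22 against 50 (-1.70). Glycolysis genes gave 3 of 11 higher (Ldhb, Tpi1 and Pkm) and none without the 2 cells with other markers. Col3a1 was the lowest by bound, with 36 against 188 UMIs, but 159 lay in 1 papain cell with other markers, and without it the log2 ratio was -0.40 and not called.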

How the data were processed

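Single-cell RNA of 3 pooled nasal mucosa libraries was analysed, 1 per group. The deposited values are whole UMI counts for each gene and barcode, without normalization. For Cell Ranger, which produced the counts, the submitters' processing notes name version 2.1.1 with build GRCm39 and the file headers name 7.1.0. Each matrix lists 55357 genes. Groups came from the sample labels.

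The rule given in the report was applied to the counts. The members, gene lists and thresholds were chosen with earlier results of these data known, so none is independent of them. Counts were summed per library and arm, and log2 ratios were formed with 0.5 counts added, with conditional binomial 95% intervals of 2 Poisson counts. Genes needed 20 UMIs over both libraries, and an arm at least 10 cells in each. Several alternatives went below this minimum in the osteoblast lineage, among them those without cells holding other markers and in female cells alone. Named genes were the rule genes, up to 4 members of each of 38 lists with most UMIs plus any called member, and per comparison the 10 highest and 10 lowest by the interval bound nearest 0 (a UMI in at least 10% of cells and 5 cells, and at least the CPM of all other cells), plus 15 leading genes per arm; some named genes are not reported here. Markers of other types were read from 9 of the 38 lists. Doublets were marked with Scrublet (scanpy 1.11.5) and kept in the main values. Without replicates no test was possible. The scripts were tested on simulated data. TMM came from edgeR 4.0.16, used for scaling alone. Python 3.11.15, numpy 2.4.6, scipy 1.17.1 and pandas 2.3.3 were used.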

Additional observations from a re-analysis of the deposited data

How the results depend on the processing

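No paired analysis was possible because each group is 1 pooled library and the labels give no replicate numbers. Of the folds of cell shares, those of LND against papain and against PBS in the osteoblast lineage and those of cartilage against PBS stayed above 1 under every alternative run; papain against PBS in the osteoblast lineage turned to 1.57 with rule genes at 1 UMI, and cartilage with LND against papain to 0.96 in female cells, both with intervals spanning 1. With 3 of 5 rule genes the bound for cartilage with LND against PBS was at least 5.48, and among female cells the bounds were at least 2.14 and, for papain against PBS, 2.23. These bounds leave out the counting error of the cartilage cells. The counts of called genes moved with the number of UMIs required. For papain against PBS in the osteoblast lineage, a minimum of 50 UMIs gave 84 higher and 77 lower, no minimum 495 and 347, and female cells alone 90 and 139. Leaving out cells with other markers gave 111 higher. For LND against papain, 50 UMIs gave 92 and 114, no minimum 702 lower, female cells 88 and 118, TMM 320 and 199, leaving out cells with other markers 60 and 169, and leaving out the cell with most UMIs of each gene 274 and 135. For LND against PBS, 50 UMIs gave 119 and 164, no minimum 731 lower, 3 of 5 rule genes 165 higher, TMM 467 and 228, leaving out cells with other markers 170 higher, and leaving out the top cell 293 lower. For cartilage, 50 UMIs gave 47 and 30 and no minimum 233 and 178. Fewer genes are tested at 50 UMIs and more with no minimum; the cause of the other differences was not tested. Of the 80 values of the 10 highest and 10 lowest genes of each comparison, 20 were no longer called and 1 reversed without cells holding other markers (Hspb1, LND against papain, log2 ratio 0.19), and among female cells 6 were no longer called and 1 reversed (Wfdc18, LND against papain, 0.61). All 80 kept their calls under TMM, with 1 count added, with the mean over cells, and at 10% mitochondrial UMIs. With 10 to 39 cells per arm and library, single cells can carry a gene, and differences under 2-fold could not be read.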
